A study of Mus musculus with 6 samples.

Results

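Proteasome genes were taken as all rows of the count table whose symbol reads Psm, then a letter from a to g, then a digit. This rule took 50 of the 13709 genes in the table. Of the 50, 48 encode proteasome subunits, regulators or assembly chaperones. The remaining 2 match by name alone: Psmc3ip encodes a meiotic recombination factor named as a partner of Psmc3, and Psme3ip1 encodes a partner protein of Psme3. Psma8, the spermatid form of an alpha subunit, has no row in the table.

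CD4+YFP+CD25+ Tregs had been sorted for RNA-Seq from 3 KO (Foxp3Cre Zfp335fl/fl) and 3 WT samples, from C57BL/6 mice 2 weeks old. The WT mice were described as Foxp3Cre mice in the study's text and as wild-type littermates in the labels. Tregs are CD4+ T cells that depend on the transcription factor Foxp3, and in KO mice the Cre recombinase and the YFP marker are both driven by Foxp3, so that the floxed Zfp335 gene is deleted in cells that have expressed Foxp3. The labels name both lymph nodes and spleen as the source of the cells, and neither they nor the study's text say whether a sample held cells of 1 mouse or of several.

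The proteasome is the main protease of the cytosol and nucleus, and it degrades proteins that carry ubiquitin chains. Its core particle, called 20S, is a stack of rings of alpha and beta subunits, and 3 of the beta subunits, Psmb5, Psmb6 and Psmb7, hold the catalytic sites. In immune cells and after interferon these are replaced in newly built particles by Psmb8, Psmb9 and Psmb10, which gives the immunoproteasome and alters which peptides are left for MHC class I molecules. The regulatory particle, called 19S, binds and unfolds ubiquitinated proteins and feeds them into the core, and the activators Psme1 and Psme2 form another cap, PA28. Activated and dividing lymphocytes are known for high levels of immunoproteasome.

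Levels are given in CPM, which scales the counts of a library to a common total. For Zfp335 the level was 101.3, 94.3 and 102.7 CPM in WT and 37.0, 37.9 and 40.2 CPM in KO, which left KO at 38.6% of the WT mean and no overlap. The total count per sample lay between 32032631 and 40728419, and 3 counts corresponded to at most 0.0913 CPM. The Treg and T cell markers Foxp3, Ikzf2, Cd4 and Cd3e were all expressed, between 317 and 1190 CPM in every sample. WT replicate 3 stood apart from the other WT samples on the second principal component (-58.9 against 22.1 and 34.4). For the proteasome genes, values without it are given where they move a result. Fits without it are not given for other genes. Nothing in the labels says that the samples were separate cultures or litters, so the p-values measure the spread between these samples, which may be technical.

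The start regions of Psmb5, Psmb6 and Psmb10 are shown here because these catalytic subunit genes are among those the comparison turns on. They were picked as genes that differ in the letters they carry. Sequences are those of RefSeq on GRCm38.p6, written 5′ to 3′ on the strand of the gene, and cover the part of each window that lies upstream of every annotated exon. Capitals mark a match to TGACNNNGC, the letters of the antioxidant response element (ARE) that CNC-family factors such as Nfe2l1 bind. The Psmb5 window (chr14:54618023-54618245, minus strand) and the Psmb6 window (chr11:70525107-70525356, plus strand) each hold 1 match, and the Psmb10 window (chr8:105938445-105938642, minus strand) holds none. No window was found for Psmb7, and the windows of Psmb8 and Psmb9, not shown, hold no match.
Psmb5: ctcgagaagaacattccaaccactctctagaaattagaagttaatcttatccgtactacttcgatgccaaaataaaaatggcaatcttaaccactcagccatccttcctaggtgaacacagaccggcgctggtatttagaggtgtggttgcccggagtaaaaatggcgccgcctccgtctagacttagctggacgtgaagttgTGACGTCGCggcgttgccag
Psmb6: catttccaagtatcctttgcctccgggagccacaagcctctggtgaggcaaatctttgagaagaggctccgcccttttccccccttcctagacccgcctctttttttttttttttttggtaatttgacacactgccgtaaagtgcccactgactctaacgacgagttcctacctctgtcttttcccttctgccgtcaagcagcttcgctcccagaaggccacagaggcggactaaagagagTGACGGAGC
Psmb10: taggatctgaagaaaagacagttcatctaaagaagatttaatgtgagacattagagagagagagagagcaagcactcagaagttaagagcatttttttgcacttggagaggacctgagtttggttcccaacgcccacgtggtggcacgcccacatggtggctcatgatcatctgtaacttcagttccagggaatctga
RefSeq windows of 300 bases around the start site were found for 43 of the 50 genes and were searched on both strands. ARE letters were found in 6 of the 43 genes (Psmb5, Psmb6, Psmc6, Psmd9, Psmd12 and Psme4), against 16.7% of all genes of the table with a window. The interferon-stimulated response element, searched as GAAA, any 2 bases, then GAAA, was found in 5 of the 43 (Psmb3, Psmd4, Psmd9, Psme1 and Psmg4), against 3.81% of all genes. The letters TTCNNNGAA, which Stat factors bind and which can share GAA with the former motif, were found in 3 (Psmb8, Psmd2 and Psmg1), against 8.40%. The CCAAT box was found in 16, against 43.0%. A match describes letters and is not a site of binding. Some windows lie partly or wholly inside the gene as GENCODE places it, since the RefSeq start differs. The Psmd9 window starts at 123227940 on chromosome 5, where the gene starts at 123169413 (plus strand). The Psmb9 window ends at 34187580 on chromosome 17, where the gene ends at 34187764 (minus strand). The Psmb8 window starts at 34197945 on chromosome 17, where the gene starts at 34197721 (plus strand). Its TTCNNNGAA match thus lies inside the gene and not upstream of it.

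Proteasome genes were higher in KO than in WT Tregs by a modest amount. Of the 50 genes, 43 had a higher and 7 a lower mean in KO. The median log2 fold change (KO against WT, the measure given on the log2 scale below) was 0.37, a fold change of 1.29, whereas the median over all 13594 genes tested was -0.04. At an adjusted p under 0.05 with no cutoff on the fold change, 36 of the 50 genes rose, where 19.2% of all genes rose, and 1 gene fell, where 19.4% of all genes fell. In 41 of the 50 genes every KO sample was above every WT sample, which held for 26.2% of all genes, and in 2 genes every KO sample was below, which held for 27.6% of all genes.

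Most of these changes were smaller than the fold change of 1.5 that the study required. Under its cutoffs (fold change above 1.5, p under 0.05, adjusted p under 0.1), 8 of the 50 genes were called, where 24.4% of all genes were called. The calls were 7 higher, where 11.9% of all genes were called higher, and 1 lower, where 12.5% were called lower. The share of proteasome genes called was therefore near or below that of all genes, while the share that rose at an adjusted p under 0.05 was above it. Without WT replicate 3, 4 genes were called higher in place of 7, and 40 rose at an adjusted p under 0.05. Of the 36 genes that rose, 25 did so in every alternative that gave such a p, and 11 missed it in at least 1.

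Added together, the 48 proteasome genes reached 4594, 4838 and 4495 CPM in the WT samples, in the order of their replicate numbers, and 6303, 6019 and 6182 CPM in the KO samples. The KO samples lay above all WT samples, by 1.33 times in the means and by 1.31 times without WT replicate 3. Replicates of a genotype lay close together: the SD of a gene had a median of 8.43% of its mean in WT and 4.38% in KO. WT replicate 3 had the lowest WT value in 28 of the 48 genes.

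**Figure D1:**
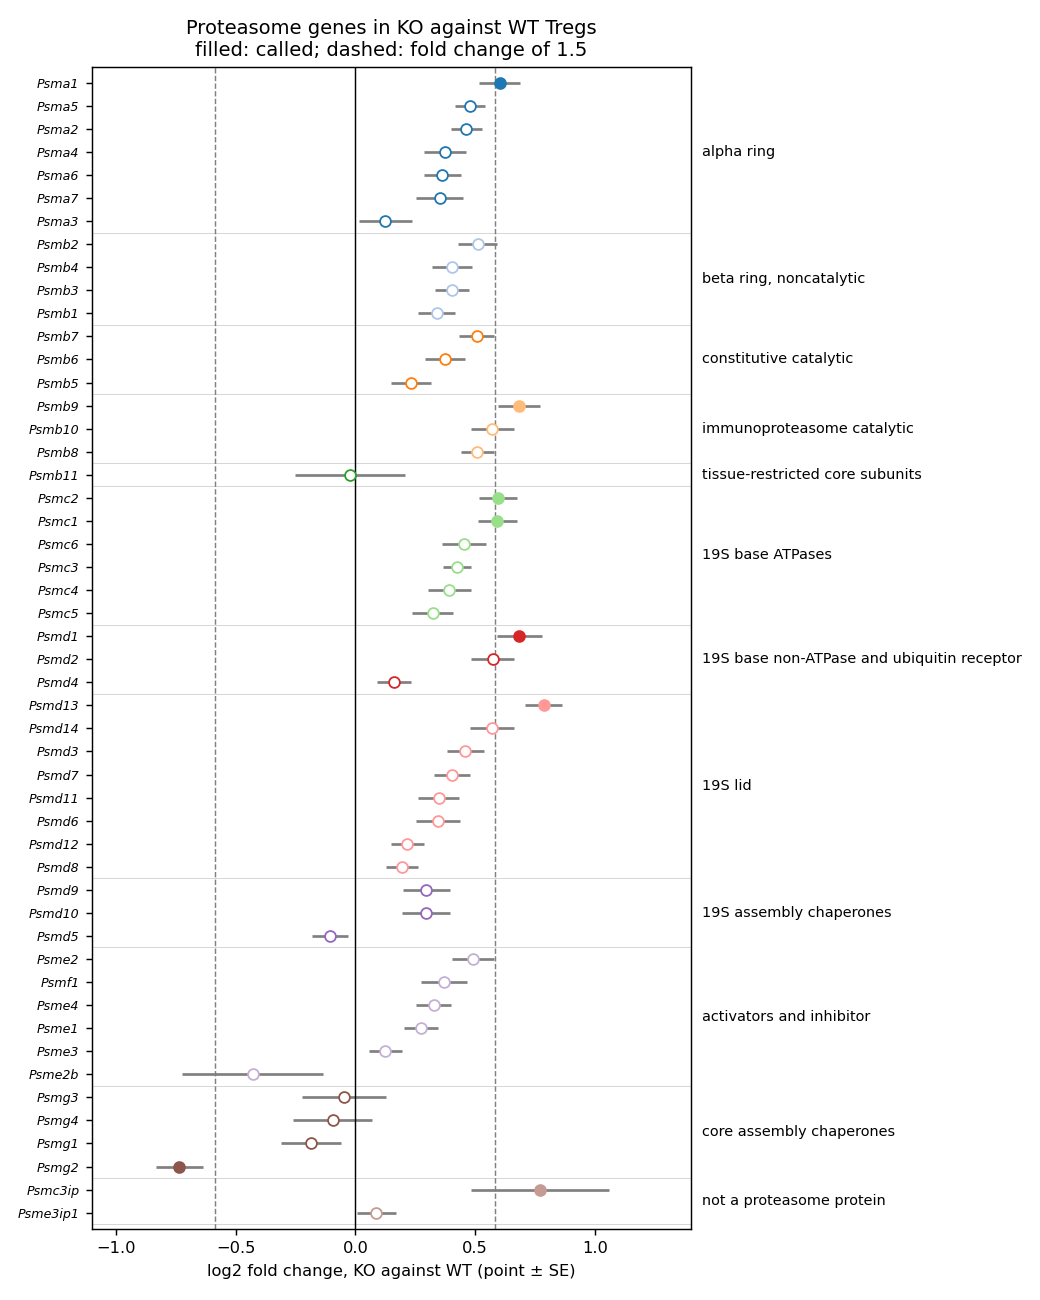
Log2 fold change of each of the 50 genes, KO against WT, with its standard error from the edgeR fit (x axis), grouped by class (right). Filled points were called, and the dashed lines mark a fold change of 1.5. The subunits of the constitutive core and the 19S particle all lie right of 0, mostly between 0.2 and 0.7, and the 4 core assembly chaperones lie left of it, though Psmg3 and Psmg4 turn above 0 with GC and length offsets.

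The barrel of the core was higher in KO as a whole. Among the 14 constitutive core subunits, which are the alpha ring, the noncatalytic beta subunits and the constitutive catalytic subunits, all 14 had a higher mean in KO, 12 rose at an adjusted p under 0.05 and 1 was called. Over all genes 19.2% rose and 24.4% were called, and these shares stand beside the counts of each class below. Fold changes ran from 1.09 to 1.52 with a median of 1.31. Their summed level was 1337, 1468 and 1349 CPM in WT and 1860, 1790 and 1830 CPM in KO, without overlap.

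In the alpha ring, whose subunits form the gate through which proteins enter, 6 of 7 genes rose. Psma1 had the largest difference, with 83.6, 101.8 and 87.5 CPM in WT and 133.0, 140.8 and 140.4 CPM in KO. The groups did not overlap (0.60 ± 0.09 SE on the log2 scale, adjusted p = 0.0014), and the gene was called, though without WT replicate 3 its log2 fold change of 0.57 was under the fold cutoff. Psma3 had the smallest difference in the ring, with 62.6, 71.7 and 82.5 CPM in WT and 74.7, 85.5 and 76.2 CPM in KO. Its groups overlapped, and the difference did not pass the test (0.12 ± 0.11 SE on the log2 scale, adjusted p = 0.414). It reached 0.23 and passed once WT replicate 3 was left out (adjusted p = 0.0286), and 0.03 once WT replicate 1 was.

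All 4 noncatalytic beta subunits, Psmb1 to Psmb4, rose without being called. Psmb2 had 61.8, 72.5 and 62.3 CPM in WT and 95.1, 91.1 and 93.9 CPM in KO (0.51 ± 0.08 SE on the log2 scale, adjusted p = 0.0022). Psmb1 had 127.1, 148.5 and 145.5 CPM in WT and 175.4, 182.8 and 174.9 CPM in KO (0.34 ± 0.08 SE on the log2 scale, adjusted p = 0.0105). In both genes all KO samples were above all WT samples. Reads of Psmb3, Psma4 and Psma5 could be shared with pseudogenes that match them by over 95% of bases.

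Of the catalytic subunits of the constitutive core, 2 of 3 rose. Psmb5, with the chymotrypsin-like site (chromosome 14, 54614119 to 54618022, minus strand), had 63.0, 62.2 and 53.2 CPM in WT and 70.8, 67.7 and 71.2 CPM in KO. The KO samples were all above the WT samples, yet the difference did not pass an adjusted p of 0.05 (0.23 ± 0.08 SE on the log2 scale, adjusted p = 0.0631), and a processed pseudogene, Gm3375, matches 98.9% of bases over most of its transcript. Psmb6, with the caspase-like site (chromosome 11, 70525367 to 70527858, plus strand), had 84.6, 94.7 and 79.7 CPM in WT and 115.8, 105.6 and 114.6 CPM in KO, and it rose (0.38 ± 0.08 SE on the log2 scale, adjusted p = 0.0095). Psmb7, with the trypsin-like site (chromosome 2, 38588036 to 38644087, minus strand), was at 74.7, 76.3 and 72.8 CPM in WT and 107.5, 98.3 and 112.1 CPM in KO. It rose the most of these 3 (0.51 ± 0.07 SE on the log2 scale, adjusted p = 0.0013), and it shares 405 exonic bases with Nek6 on the other strand.

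The 3 immunoproteasome catalytic subunits all rose, by fold changes between 1.42 and 1.61. Psmb8 (chromosome 17, 34197721 to 34201454, plus strand), which takes the place of Psmb5, had 277.4, 291.0 and 307.4 CPM in WT and 434.0, 405.5 and 407.6 CPM in KO. Its level per kb of transcript was the highest of the catalytic subunits in both genotypes, and its groups did not overlap (0.51 ± 0.07 SE on the log2 scale, adjusted p = 0.0011). It shares 498 exonic bases with Gm20496, an antisense gene. Psmb9 (chromosome 17, 34181987 to 34187764, minus strand), which takes the place of Psmb6, had 126.9, 113.7 and 101.5 CPM in WT and 180.2, 182.2 and 186.8 CPM in KO. Psmb9 was the called member of the group (0.68 ± 0.09 SE on the log2 scale, adjusted p = 0.0009), but 212 of its exonic bases are shared with Tap1 on the other strand, and whether the counting used strand was not stated. Psmb10 (chromosome 8, 105935735 to 105938444, minus strand), which takes the place of Psmb7, had 71.5, 87.1 and 87.3 CPM in WT and 117.6, 124.0 and 123.8 CPM in KO. All KO samples were again above all WT samples (0.57 ± 0.09 SE on the log2 scale, adjusted p = 0.0021), and leaving out WT replicate 3 took it past the fold cutoff, at 0.62 on the log2 scale.

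**Figure D2:**
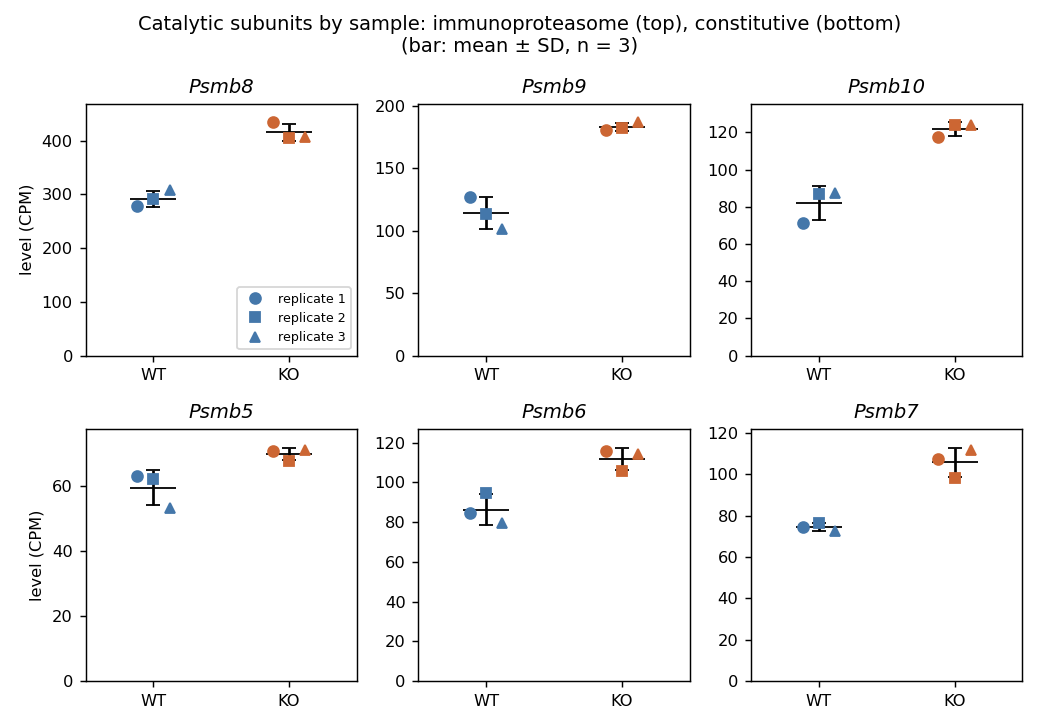
Level in CPM (y axis, from 0) of the 3 immunoproteasome catalytic subunits (top) and of the constitutive subunits they replace (bottom) in each sample. Symbols are replicates, the horizontal bar is the mean and the vertical bar the SD of 3 samples. In all 6 genes the KO samples lie above the WT samples.

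Summed, the immunoproteasome catalytic genes had 475.7, 491.8 and 496.2 CPM in WT and 731.8, 711.6 and 718.1 CPM in KO, and the constitutive catalytic genes had 222.2, 233.2 and 205.7 CPM in WT and 294.0, 271.6 and 297.9 CPM in KO. To ask whether the immunoproteasome forms differed more than the subunits they replace, the ratio within each pair was compared between genotypes. The comparison was made within each sample, so that it needs no scaling of libraries. With 3 samples against 3, the exact permutation test cannot go below p = 0.1.

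For Psmb8 to Psmb5, the ratio of levels per kb of transcript was 2.43, 2.59 and 3.19 in WT and 3.39, 3.31 and 3.16 in KO. WT replicate 3 lay among the KO samples, and the difference of 0.27 on the log2 scale had p = 0.2 in the two-sided exact permutation test (adjusted over 3 pairs, 0.3). For Psmb9 to Psmb6 the ratio was 0.89, 0.71 and 0.75 in WT and 0.92, 1.02 and 0.96 in KO. These groups did not overlap, and the difference of 0.31 on the log2 scale had p = 0.1 in the exact permutation test, the smallest this design can give (adjusted 0.3). For Psmb10 to Psmb7 the ratio was 0.85, 1.01 and 1.06 in WT and 0.97, 1.12 and 0.98 in KO. The groups overlapped (log2 difference 0.07, exact permutation p = 0.6, adjusted 0.6), and without WT replicate 1 the difference was -0.02. With this smallest p no pair could pass after adjustment, so the test does not say whether the balance of the forms differed between genotypes. The immunoproteasome genes made up 57.0%, 56.5% and 59.8% of the level per kb of the 6 catalytic genes in WT and 60.7%, 62.1% and 60.2% in KO, with every KO sample above the WT samples by a margin that was narrow for WT replicate 3.

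**Figure D3:**
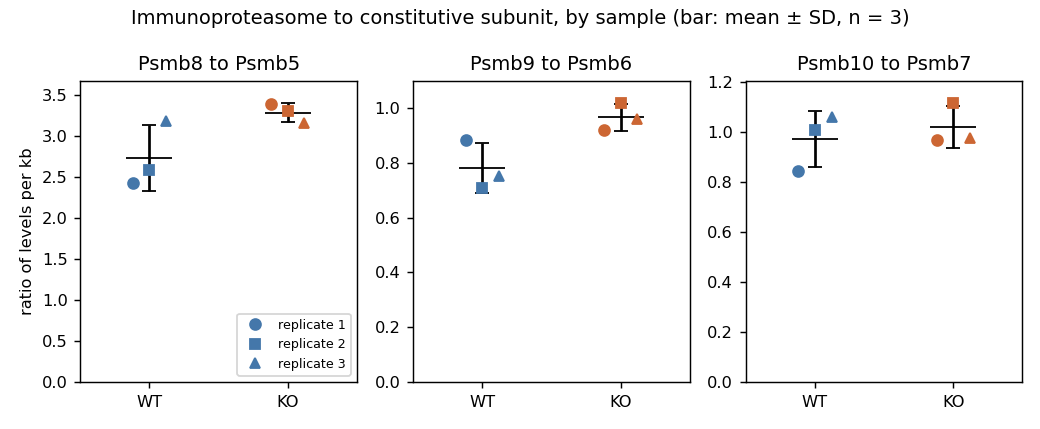
Ratio of levels per kb of transcript (y axis, from 0) between each immunoproteasome subunit and the constitutive subunit it replaces, in each sample. Symbols are replicates, and bars give the mean and SD of 3 samples. The KO samples of Psmb9 to Psmb6 lie above the WT samples, while the groups overlap in the other two pairs.

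Psmb11, the catalytic subunit of the thymus epithelium, was near the bottom of the range, with 4.13, 3.47 and 4.27 CPM in WT and 3.15, 4.58 and 3.94 CPM in KO. Its groups overlapped (-0.02 ± 0.23 SE on the log2 scale, adjusted p = 0.948).

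The 19S regulatory particle was likewise higher in KO. All 17 of its subunits that the name rule took had every KO sample above every WT sample, which held for 26.2% of all genes. Of these 17, 15 rose at an adjusted p under 0.05, where 19.2% of all genes rose. The 4 that were called, all higher, made a share near the 24.4% of all genes that were called. Of all genes 11.9% were called higher. Fold changes ran from 1.12 to 1.73 with a median of 1.34, and the summed level was 1859, 1911 and 1716 CPM in WT and 2590, 2434 and 2514 CPM in KO. The difference between the median of this group and that of the core was not tested. Sem1 and Adrm1, which also belong to the particle, lie outside the name rule. Adrm1 rose (0.42 ± 0.07 SE on the log2 scale, adjusted p = 0.0032). Sem1 overlapped between genotypes and did not pass the test (0.17 ± 0.11 SE on the log2 scale, adjusted p = 0.276).

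The 6 ATPases Psmc1 to Psmc6 form the ring that unfolds substrates, and all 6 rose. Psmc2 had 94.6, 86.4 and 86.4 CPM in WT and 146.0, 130.7 and 127.4 CPM in KO (0.60 ± 0.08 SE on the log2 scale, adjusted p = 0.0009). Psmc1 had 115.9, 119.9 and 101.9 CPM in WT and 176.6, 161.0 and 171.5 CPM in KO (0.59 ± 0.08 SE on the log2 scale, adjusted p = 0.0011), and a pseudogene matches 95.6% of its bases. Both were called at fold changes of 1.51, just past the cutoff, and without WT replicate 3 both were under it, at log2 fold changes of 0.57 and 0.52. Psmc5 had the smallest difference of the ring, with 103.2, 99.0 and 88.6 CPM in WT and 131.4, 115.8 and 116.4 CPM in KO (0.32 ± 0.09 SE on the log2 scale, adjusted p = 0.0194), and without KO replicate 1 it missed an adjusted p of 0.05 (0.0804).

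Among the genes of the name rule, the rest of the base holds the scaffold proteins Psmd1 and Psmd2 and the ubiquitin receptor Psmd4. Psmd1 had 123.5, 134.4 and 105.2 CPM in WT and 198.0, 195.5 and 190.0 CPM in KO, with no overlap, and was called (0.68 ± 0.09 SE on the log2 scale, adjusted p = 0.0012). It shares 252 exonic bases with Htr2b on the other strand and 301 with Gm21972 on its own. Psmd4 had 121.3, 121.9 and 124.4 CPM in WT and 145.0, 126.7 and 139.3 CPM in KO. The KO samples were all above the WT samples, but this smallest difference of the 19S subunits did not pass the test (0.16 ± 0.07 SE on the log2 scale, adjusted p = 0.108). Without WT replicate 3 it passed narrowly (adjusted p = 0.0471).

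The lid removes ubiquitin chains from substrates, through the deubiquitinase Psmd14, and 7 of its 8 subunits under the name rule rose. Psmd13, a structural subunit of the lid, had the largest difference of the 48 proteasome genes, with 89.0, 90.5 and 77.8 CPM in WT and 150.4, 143.0 and 150.9 CPM in KO. It was called (0.79 ± 0.08 SE on the log2 scale, adjusted p = 0.0003), and it shares 342 exonic bases with Sirt3 on the other strand. Psmd8 had the smallest difference of these 8, with 127.5, 139.7 and 128.1 CPM in WT and 155.0, 145.9 and 151.6 CPM in KO (0.20 ± 0.07 SE on the log2 scale, adjusted p = 0.0521). It passed without WT replicate 3 (0.17 on the log2 scale, adjusted p = 0.0313).

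Of the 6 genes for activators and the inhibitor of the core, 4 rose and none was called. Psme1 and Psme2 form the PA28 cap, which is known for its role in antigen processing, and both rose. Psme1 (chromosome 14, 55578123 to 55581529, plus strand) had 249.4, 269.3 and 270.2 CPM in WT and 332.8, 302.8 and 318.2 CPM in KO (0.27 ± 0.07 SE on the log2 scale, adjusted p = 0.0168). Psme2 (chromosome 14, 55587441 to 55591113, minus strand) had 188.8, 198.8 and 160.9 CPM in WT and 257.5, 249.2 and 264.3 CPM in KO (0.49 ± 0.09 SE on the log2 scale, adjusted p = 0.0039). Neither gene overlapped between genotypes, though Psme1 missed an adjusted p of 0.05 when KO replicate 1 or 3 was left out (0.0771 and 0.0701).

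Psme2b (chromosome 11, 48945354 to 48946190, minus strand) is 99.4% identical to Psme2 where they match, and 1 alignment per read had been kept, so counts of these genes are uncertain. It had 18.8, 20.4 and 42.1 CPM in WT and 19.5, 22.7 and 18.1 CPM in KO (-0.43 ± 0.30 SE on the log2 scale, adjusted p = 0.291). WT replicate 3, the highest for Psme2b, was the lowest for Psme2, and leaving it out put Psme2b at 0.04 on the log2 scale. Added together, the pair had 207.5, 219.2 and 203.0 CPM in WT and 277.0, 271.9 and 282.4 CPM in KO, a ratio of means of 1.32.

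Psme3, the nuclear activator PA28 gamma, had 177.3, 180.9 and 160.3 CPM in WT and 183.9, 189.5 and 192.0 CPM in KO. All KO samples were above all WT samples, by an amount that did not pass the test (0.13 ± 0.07 SE on the log2 scale, adjusted p = 0.199). Psme4, the nuclear activator PA200, rose from 88.6, 95.9 and 102.6 CPM in WT to 123.7, 116.3 and 120.1 CPM in KO (0.33 ± 0.07 SE on the log2 scale, adjusted p = 0.0103). Psmf1, an inhibitor of the core, rose from 45.2, 37.9 and 45.0 CPM to 52.4, 54.8 and 58.4 CPM (0.37 ± 0.09 SE on the log2 scale, adjusted p = 0.0169). Psmf1 missed the threshold when KO replicate 2 or 3 was left out (adjusted p = 0.0586 and 0.077).

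The 4 core assembly chaperones Psmg1 to Psmg4 all had a lower mean in KO (median -0.14 on the log2 scale), though Psmg3 and Psmg4 turned above 0 with GC and length offsets, and they had summed levels of 64.3, 73.2 and 63.1 CPM in WT and 53.2, 53.5 and 54.0 CPM in KO. Of these 4, Psmg2 passed the test. It had 22.7, 26.2 and 24.8 CPM in WT and 14.5, 14.8 and 14.8 CPM in KO. It was the called gene on the lower side, at 0.60 of the WT level (-0.74 ± 0.10 SE on the log2 scale, adjusted p = 0.0010). The other chaperones of these 4 overlapped between genotypes. Pomp, a core maturation factor outside the name rule, went the other way and rose (0.41 ± 0.10 SE on the log2 scale, adjusted p = 0.0148). Psmg1, which pairs with Psmg2 to align the alpha ring, had 18.8, 19.1 and 17.8 CPM in WT and 15.4, 18.9 and 14.6 CPM in KO (-0.19 ± 0.13 SE on the log2 scale, adjusted p = 0.277). Psmg3 and Psmg4, which also work as a pair, had log2 fold changes of -0.05 ± 0.18 and -0.10 ± 0.16 (SE), with adjusted p of 0.861 and 0.686 and levels between 8.34 and 16.0 CPM in all samples, and both turned above 0 when WT replicate 2 was left out (0.03 and 0.07).

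Of the 3 chaperones that assemble the base of the 19S particle, Psmd9 and Psmd10 passed an adjusted p of 0.05 by a small margin, which several alternatives took away (highest adjusted p 0.157 for Psmd9 and 0.153 for Psmd10, both with KO replicate 1 left out, and 0.0791 and 0.102 with the replicate number as a block). Psmd9 had 25.9, 25.3 and 22.3 CPM in WT and 31.5, 28.1 and 30.7 CPM in KO (0.30 ± 0.10 SE on the log2 scale, adjusted p = 0.0457), and it shares 1849 exonic bases with a noncoding gene on the other strand. Psmd10, also known as gankyrin, had 15.1, 16.8 and 16.2 CPM in WT and 20.2, 18.7 and 20.1 CPM in KO (0.29 ± 0.10 SE on the log2 scale, adjusted p = 0.0485). Psmd5 had 44.8, 45.3 and 45.8 CPM in WT and 43.6, 43.0 and 39.5 CPM in KO. All KO samples were below the WT samples, but the difference did not pass the test (-0.11 ± 0.07 SE on the log2 scale, adjusted p = 0.299).

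**Figure D4:**
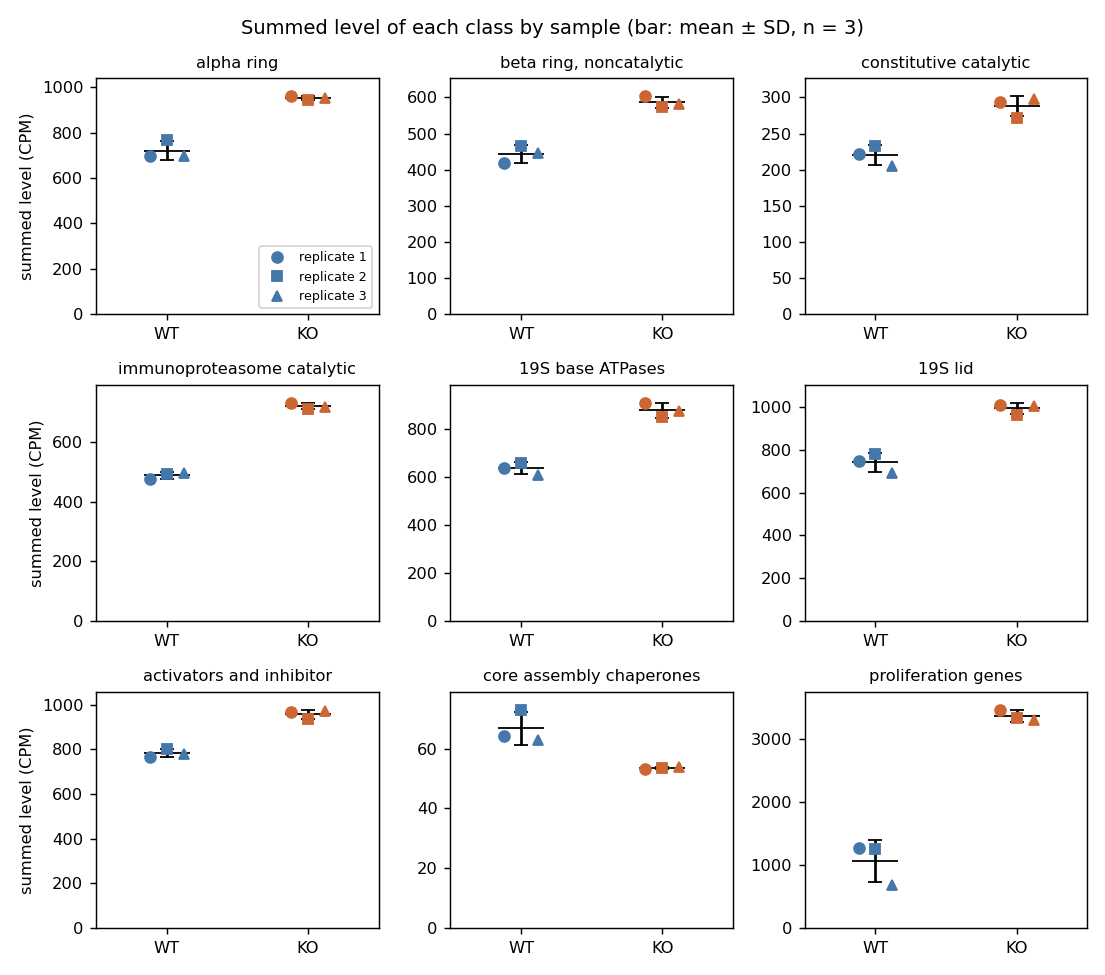
Summed level in CPM (y axis, from 0) of 8 classes of proteasome genes and of the proliferation genes in each sample. Symbols are replicates, and bars give the mean and SD of 3 samples. The KO samples lie above the WT samples in every class shown except the core assembly chaperones, where they lie below, and the proliferation genes differ by 3.15 times, against 1.33 times for all 48 proteasome genes together.

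Of the 2 genes taken by name alone, Psmc3ip was called, with 4.84, 6.94 and 2.97 CPM in WT and 8.13, 8.34 and 8.71 CPM in KO (0.77 ± 0.29 SE on the log2 scale, adjusted p = 0.0677). Its log2 fold change was 0.51 without WT replicate 3, under the fold cutoff, and it shares 385 exonic bases with Mlx. Psme3ip1 had 50.8, 50.5 and 47.8 CPM in WT and 53.8, 56.1 and 48.5 CPM in KO, which overlapped (0.09 ± 0.08 SE on the log2 scale, adjusted p = 0.435).

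Levels were compared between genes per kb of transcript, using the principal transcript of each gene. Psme1 was the highest of the 50 genes in both genotypes, at 236 ± 10.6 CPM per kb in WT and 286 CPM per kb in KO. Psme2 followed at 190 ± 20.4 and 267, and Psmb8 at 179 ± 9.2 and 255 CPM per kb. Psme2 and Psmb8 lay within an SD of each other in WT, so their order was not resolved. Psmb11 was the lowest, at 0.93 ± 0.10 CPM per kb in WT and 0.92 in KO. Among the 50 genes, the assembly chaperones of both particles lay between 9.44 (Psmd9) and 23.6 (Psmg4) CPM per kb in WT. In the means this was below all core subunits that are part of the constitutive barrel. The order of Psmg4 (23.6 ± 4.5) and Psma3 (25.4 ± 3.5) was not resolved, as they lay within an SD of each other. In WT replicate 2 Psmg4 was the higher of these, at 28.7 against 25.2 CPM per kb.

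The core subunits assemble in equal numbers, yet their levels per kb were not equal. Within a sample the highest of the 14 constitutive core subunits, Psmb3 or Psma7, was 4.83 to 7.92 times the lowest, Psma3. The principal transcript of Psma3 is long, at 2846 bases against 766 for Psmb3, so that its place depends on the transcript chosen. The 17 subunits of the 19S particle under the name rule spanned a narrower range, from 2.90 to 3.40 times between highest and lowest. Psmc3 was the highest of these in 5 of the samples.

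**Figure D5:**
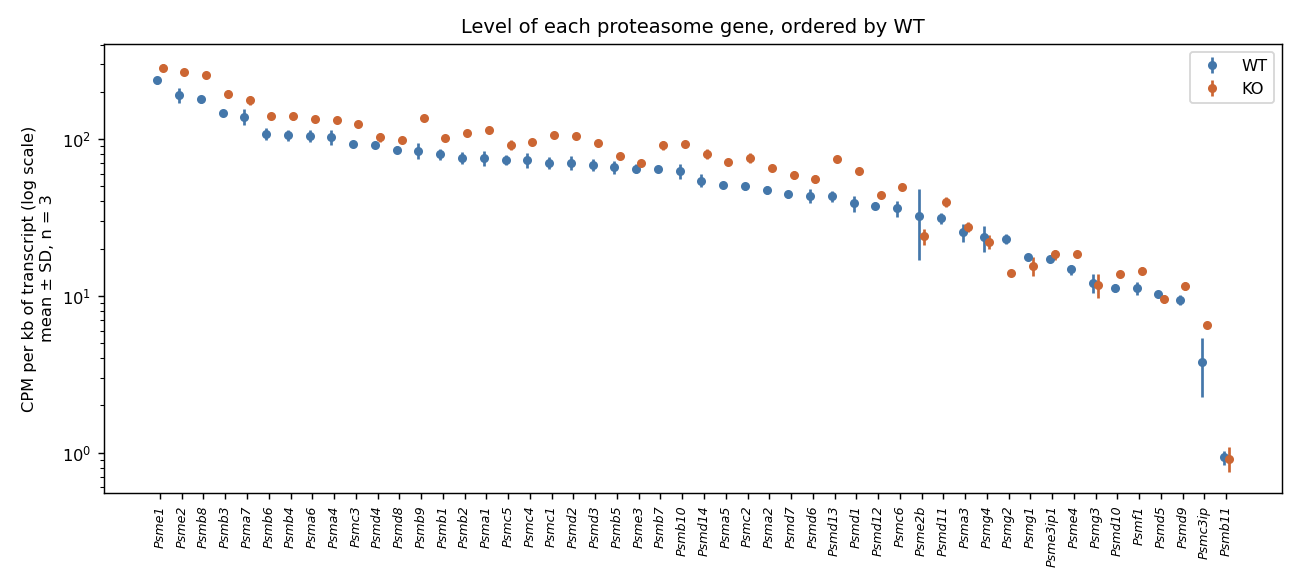
Mean level per kb of transcript (y axis, log scale) of the 50 genes in WT and KO, in the order of WT, with the SD of 3 samples. Psme1, Psme2 and Psmb8 are highest and Psmb11 lowest in both genotypes, and most KO points lie above their WT points.

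Genes that work with the proteasome but lie outside the name rule moved in both directions. Of 26 such genes tested, 10 rose and 3 fell at an adjusted p under 0.05, and 3 were called higher and 1 lower. Over all genes 19.2% rose, 19.4% fell, 11.9% were called higher and 12.5% lower. The share of these 26 called higher was thus near that of all genes. The called genes that were higher were Uchl5 (0.87 ± 0.13 SE on the log2 scale) and Usp14 (0.62 ± 0.09 SE), the deubiquitinases that bind the 19S particle, and Nploc4 (0.75 ± 0.07 SE), a partner of the segregase Vcp. Vcp itself rose (0.48 ± 0.07 SE, adjusted p = 0.0016), as did the core maturation factor Pomp (0.41 ± 0.10 SE, adjusted p = 0.0148) and the ubiquitin receptor Adrm1 (0.42 ± 0.07 SE, adjusted p = 0.0032). Rps27a, which encodes ubiquitin fused to a ribosomal protein, was called lower, at 692.9, 784.6 and 819.7 CPM in WT and 508.5, 477.3 and 516.3 CPM in KO (-0.61 ± 0.08 SE on the log2 scale).

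Nfe2l1, the factor known to raise proteasome genes when proteasome activity is short, had 101.0, 91.9 and 104.6 CPM in WT and 98.5, 101.0 and 93.9 CPM in KO. The groups overlapped (-0.02 ± 0.07 SE on the log2 scale, adjusted p = 0.854). Ddi2, the protease that activates the Nfe2l1 protein, fell slightly (-0.19 ± 0.06 SE on the log2 scale, adjusted p = 0.0442). These are RNA levels, and the activity of the Nfe2l1 protein was not measured.

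Immunoproteasome genes are known targets of interferon, so 7 genes of interferon signalling and MHC class I presentation were read beside them. All 7 had a higher mean in KO, 6 rose at an adjusted p under 0.05 and 1 was called. Over all genes 19.2% rose and 24.4% were called. The called gene was Irf1, at 234.3, 211.4 and 398.7 CPM in WT and 587.0, 534.2 and 556.0 CPM in KO (0.99 ± 0.22 SE on the log2 scale, adjusted p = 0.0096). WT replicate 3 stood well above the other WT samples for this gene, so the size of its difference depends on that replicate. Tap1, the neighbor of Psmb9 that shares exonic bases with it, rose by 0.53 ± 0.08 (SE, adjusted p = 0.0021) on the log2 scale, and B2m had the smallest difference, 0.21 ± 0.13 (SE, adjusted p = 0.229).

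Other features of the samples moved with the proteasome genes. The 7 proliferation genes (Mki67, Top2a, Cdk1, Ccnb1, Pcna, Mcm2 and Mcm5) were all called higher, and their summed level was 1268, 1256 and 679.5 CPM in WT and 3470, 3337 and 3298 CPM in KO. Their ratio of means was 3.15, and 2.67 without WT replicate 3, which had the lowest value. Natural killer cell markers summed to 20.04 to 26.1 CPM in WT and 130.6 to 137.0 CPM in KO, with 3 of 4 called higher, of which Nkg7 held most counts, while Ncr1 stayed at or under 1.25 CPM. Myeloid and dendritic markers summed to 9.25 to 21.4 CPM in WT and 50.4 to 56.1 CPM in KO, with 7 of 10 called higher, and S100a8 and S100a9 were at 0 counts in every WT sample. Of the 8 Treg and T cell markers, 5 fell and 1 rose at an adjusted p under 0.05, and Ikzf2, Foxp3 and Cd3d were called lower, at 46.3%, 54.3% and 66.5% of their WT means. Foxp3 had 738, 642 and 1190 CPM in WT and 460, 472 and 463 CPM in KO. Its WT mean, and so its percentage, thus rests in part on WT replicate 3. The list summed to 4792, 4730 and 5721 CPM in WT, again highest in WT replicate 3, and to 3799 to 3918 CPM in KO. B cell markers summed to 16.0 to 18.1 CPM in WT and 10.8 to 10.9 CPM in KO (1 of 4 called, lower), CD8 T cell markers to 9.32 to 13.2 CPM in WT and 12.02 to 12.7 CPM in KO (1 of 2 called, higher), and red cell markers to 22.9 to 98.9 CPM in WT and 42.3 to 47.8 CPM in KO (0 of 4 called). For comparison, 11.9% of all genes were called higher and 12.5% lower. The part of cell division and of other cells in the proteasome result was not tested. In bulk samples a different share of cells of a type and a different amount of RNA per cell cannot be told apart.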

How the data were processed

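The authors deposited raw counts of 6 samples in 1 table, not normalized. The study's methods name SOAPnuke for filtering of reads, HISAT2 (1 alignment kept for each read, genome mm10) and StringTie for quantification. Gene annotation and use of strand were not given in the sources used here. All 50 members passed the low-count filter.

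Counts were fitted over all genes with edgeR 4.0.16 in R 4.3.3 (filterByExpr with a minimum count of 10, TMM scaling, quasi-likelihood F-test on all 6 samples, no covariate). P-values are two-sided with Benjamini-Hochberg adjustment over 13594 genes. CPM values use TMM-scaled totals, and floors cover counting error only. Each SE comes from the quasi-likelihood fit and includes the spread between samples. Values after ± that are not marked SE are SDs over the samples of a genotype. Alternatives, with DESeq2 1.42.0 first, are given in the closing section. The fit had been tested on simulated data.

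Positions and transcripts came from GENCODE M21 (GRCm38, which mm10 denotes), overlaps from exons, and near-identical copies from blastn 2.17.0 (at least 95% identity over at least 50% of a transcript). The members and lists were chosen with earlier results of these data known, and Psme3ip1 was set apart after the table was seen. Given with full values are the catalytic subunits, Psme1 to Psme4, Psmf1, called members, the highest and lowest member of each class and, by level per kb, of all members. The other genes given were picked as relatives of these (Psme2b, Psmg1 and the like) or from the partner lists (Nfe2l1, Ddi2, Vcp, Pomp, Adrm1, Tap1) after their values were seen. Replicate numbers were not used to pair the samples in the main fit.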

Additional observations from a re-analysis of the deposited data

How the results depend on the processing

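All 43 members with a higher mean in KO kept that direction in each of 14 alternatives of the fit, and the median log2 fold change of the 50 members lay between 0.33 and 0.42. The count called higher, 7, was 10 by DESeq2 and with RLE size factors, 4 with library totals alone and 1 with glmTreat, which tests against a fold change of 1.5 and left Psmd13. It lay between 4 and 10 when 1 sample was left out. The count called lower, 1, was 0 with glmTreat. Those that rose at an adjusted p under 0.05 numbered 27 to 40 over the alternatives. Of the 36, 11 missed that threshold in at least 1 alternative (Psma4, Psma7, Psmb1, Psmc5, Psmd6, Psmd9, Psmd10, Psmd11, Psmd12, Psme1 and Psmf1), and 5 others passed it in at least 1 (Psma3, Psmb5, Psmc3ip, Psmd4 and Psmd8). Calls near the fold cutoff were lost in some alternatives (Psma1, Psmc1 and Psmc2) or gained (Psmb2, Psmb10, Psmd2 and Psmd14), and the cause was not tested. Psmb9, Psmd1 and Psmg2, further from the cutoff, lost their calls with glmTreat alone. Psmc3ip lost its call with glmTreat and in several fits with 1 sample left out. Its adjusted p reached 0.162 in the alternatives other than glmTreat. Of all calls 48.8% were higher, against 44.8% with library totals alone and 55.8% with glmTreat. Calls over all genes numbered 3318, and 1686 with glmTreat.

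Some members turned sign, most of them near 0. With GC and length offsets Psmb11 was at 0.013, Psmg3 at 0.039 and Psmg4 at 0.0177 on the log2 scale. With 1 sample left out Psmb11 lay between -0.157 and 0.108, Psmg3 between -0.153 and 0.088, Psmg4 between -0.184 and 0.067, and Psme2b, which was not near 0, between -0.636 and 0.035 (without WT replicate 3). The log2 difference of Psmb10 to Psmb7 was -0.0481 with medians and lay between -0.024 (without WT replicate 1) and 0.1387 with 1 sample left out.

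Deviations of same-numbered samples correlated at 0.0377, 0.0404 and -0.0116. With 3 samples in each group, these values cannot tell whether same-numbered samples were paired, and the labels do not say. With replicate number as a block, 7 members were called higher, 1 lower, and 33 rose at an adjusted p under 0.05.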
